A study of Mus musculus with 6 samples.

Results

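The glutathione genes of the ileum were the 43 genes of the deposited table, of 55487 identifiers in all, that encode glutathione S-transferases, glutathione peroxidases and the enzymes that make, reduce and break down glutathione or use it against methylglyoxal. They were taken by symbol: 33 by the name patterns of the soluble transferases (alpha, mu, pi, theta, kappa, omega and zeta classes), the membrane transferases and the peroxidases, and 10 singly, Gclc, Gclm, Gss, Gsr, Ggct, Oplah, Chac1, Chac2, Glo1 and Hagh. The family was selected on measured values: it was proposed after Gstm3, Gsta1 and Gclc had been seen to stand high in NEC in these same libraries. The values of that comparison are therefore given here as a description, with the calls of a fit over all genes and with no p-value for a member.

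Glutathione is a tripeptide of glutamate, cysteine and glycine and the main thiol of most cells. Glutamate-cysteine ligase and glutathione synthetase make it, transferases join it to electrophiles that come with food, bile or lipid oxidation, peroxidases spend it on peroxides, and glutathione reductase returns the oxidised form with NADPH. The lining of the small bowel meets such compounds first, and absorptive cells are known for high levels of several alpha and mu class transferases.

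The tissue was terminal ileum from mice of strain C57BL/6 at 9 days of age, with 3 NEC and 3 control libraries. NEC, necrotizing enterocolitis, was modelled by feeding hyperosmolar formula milk by gavage, by 4 days of hypoxia (5% O2, 3 spells of 10 min daily) and by lipopolysaccharide given by mouth, at a daily dose of 4 mg/kg, when the pups were 6 and 7 days old. The series design text speaks of normal and NEC mice, but the control labels carry the same treatment text, so what the controls received is not known. Whether each library is a different animal is not stated. The Xist and Y-linked levels given below put NEC 1 in a different animal from NEC 2 and 3, and for the other libraries part or all of the spread may be technical.

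Levels are in FPKM, fragments scaled to transcript length and library depth, and changes are differences of mean log2(FPKM + 1), NEC minus control, with the SE of the limma fit. A gene was tested where its mean over the 6 libraries was at least 1 FPKM, and rose or fell where its Benjamini-Hochberg adjusted p over all tested genes was under 0.05. The steps of the lowest values correspond to 15.2 to 18.7 M fragments per library. Of 15806 tested genes, 1215 were higher in NEC (7.69%) and 4829 lower (30.6%), and the median change of all tested genes was -0.26. With TMM scaling these were 2655 and 2264, with a median of 0.01.

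The libraries differed in more than their labels. Xist stood at 130 and 139 FPKM in NEC 2 and 3 and at 0.084 to 0.221 in NEC 1 and the controls, while the Y-linked gene Ddx3y was at 6.78 to 9.89 FPKM in NEC 1 and the controls. Across genes NEC 1 had the lowest mean correlation with the controls (0.858, against 0.909 and 0.936 for NEC 2 and 3), and 42.7% of its total FPKM fell on Rn7s1, a 7SL RNA gene, against 27.3 to 32.2% elsewhere. Of 19 enterocyte markers fixed for this work, 17 were tested, 16 rose and none fell, and their summed level was 13919 to 17140 FPKM in NEC and 4056 to 4898 in control. Of 10 general epithelial markers 9 did not pass and Krt19 fell. Of 12 markers of mesenchyme and muscle 6 fell and none rose, with sums of 230, 928 and 960 FPKM in NEC and 1296 to 1573 in control, and of 9 markers of stem and cycling cells 8 fell. Markers of the upper small bowel were also higher in NEC: Gata4 was at 6.32 ± 2.27 against 0.111 ± 0.0650 FPKM, and Fabp1 at 137 ± 62.1 against 0.496 ± 0.275 (SD, n = 3 each), while Cybrd1 fell. Among the ileal markers Slc10a2 stood at 1.60 ± 0.651 and 1.82 ± 0.462 FPKM and Fabp6 at 3.51 ± 5.97 and 1.63 ± 0.710 in NEC and control, and neither passed. Whether such levels are usual for ileum at 9 days of age was not tested. The third, Fgf15, fell: its level was 0.627 ± 0.651 FPKM in NEC and 5.8 ± 0.221 in control (change -2.14, SE 0.27). The defining liver gene Alb was at 0.0592 FPKM or less as a group mean. Of 9 liver markers 2 were tested: Fgb fell, from 2.21 ± 0.347 to 1.04 ± 0.507 FPKM, and Fga did not pass. Of 5 exocrine pancreas markers only Ctrb1 was tested, and it rose. It was at 10.8, 4.45 and 1.34 FPKM in NEC 1, 2 and 3 and at 0.292 or less in control, so it passed the filter only through NEC. In bulk RNA, more cells of a type and more RNA per cell cannot be told apart, and the part of these shifts in the results below was not tested.

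Some members share sequence with one another or with copies elsewhere, which bears on how their reads were divided, so the stretches that show it come first. Of the members, 21 shared no 50-base stretch with an annotated transcript of another gene and 27 shared less than 5% of their stretches. Gsta1 shared 90.5% of its 50-base stretches, 75.7% with the neighbouring gene Gm3776 and 46.6% with Gsta2. Gstp2 shared 54.3%, Gsta2 49.8%, Gpx4 34.7%, Gstp1 33.7%, Gstm3 28.8% and Gstm1 18.9%. The alpha class coding sequences below run from base 100 to base 159 counted from the A of the start codon, 5′ to 3′ on the coding strand (GENCODE M21, GRCm38), with bases that differ from Gsta1 in capitals.
Gsta1: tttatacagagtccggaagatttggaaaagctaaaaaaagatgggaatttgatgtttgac
Gsta2: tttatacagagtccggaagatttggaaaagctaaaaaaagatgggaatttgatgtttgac
Gsta3: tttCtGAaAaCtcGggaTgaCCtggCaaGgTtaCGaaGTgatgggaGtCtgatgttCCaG
Gsta4: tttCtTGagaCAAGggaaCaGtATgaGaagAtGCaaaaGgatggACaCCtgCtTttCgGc
Gsta1 and Gsta2 were identical over these 60 bases and 97.9% identical over the aligned coding sequence, while Gsta3 and Gsta4 differed from Gsta1 at 21 and 24 of the 60 bases. A read within such an identical stretch cannot be assigned to Gsta1 or Gsta2, while the remaining stretches of both genes differ between them.

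The mu class is shown over the same coding bases, with bases that differ from Gstm1 in capitals.
Gstm1: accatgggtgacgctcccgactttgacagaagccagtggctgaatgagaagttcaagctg
Gstm3: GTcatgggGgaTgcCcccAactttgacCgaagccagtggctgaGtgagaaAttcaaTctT
Gstm2: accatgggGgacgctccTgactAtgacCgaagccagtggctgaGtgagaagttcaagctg
Gstm4: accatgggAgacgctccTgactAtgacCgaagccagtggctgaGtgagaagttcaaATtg
Gstm5: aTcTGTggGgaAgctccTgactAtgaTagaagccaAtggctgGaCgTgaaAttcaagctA
Gstm3, Gstm2 and Gstm4 differed from Gstm1 at 11, 5 and 7 of the 60 bases, and Gstm5 at 15. Over the aligned coding sequence, identity to Gstm1 was 89.5% for Gstm3, 86.0% for Gstm2 and 71.4% for Gstm5. The processed pseudogene Gstm2-ps1 on chromosome 5, despite its name, was closest to Gstm1, with 97.9% identity over 657 aligned bases against 84.8% to Gstm2.

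The pi class has an intronless copy elsewhere in the genome, Gstp-ps (chromosome 1, 192073820 to 192074450). Coding bases 301 to 360 are shown for both genes and the copy, with bases that differ from Gstp1 in capitals.
Gstp1: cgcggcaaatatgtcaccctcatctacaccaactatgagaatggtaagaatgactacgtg
Gstp2: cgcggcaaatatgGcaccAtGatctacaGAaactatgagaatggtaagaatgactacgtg
Gstp-ps: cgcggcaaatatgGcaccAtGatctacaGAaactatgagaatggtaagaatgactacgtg
Gstp2 and Gstp-ps carried the same 5 differences from Gstp1, and the copy was 99.2% identical to Gstp2 and 97.6% to Gstp1 over 631 aligned bases. The authors' treatment of reads with several matches is not given in the sources used here.

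Of the 43 members, 37 passed the filter. Among these 20 rose in NEC, 3 fell and 14 did not pass, beside 7.69% higher and 30.6% lower among all tested genes. A rise of at least 1 was called in 10 members (2.02% of all tested genes) and a fall of at least 1 in 3 (5.94%). The family was picked with this comparison in view, so nothing is read from that contrast of shares. The median change of the tested members was 0.50, and the NEC and control libraries did not overlap in 27 of the 37, beside 59.1% of all tested genes. Gstm6 and Gstp1 passed the filter only through their NEC libraries, with control means below 1 FPKM, and Gpx7 only through its controls. The 6 members below the filter were Gstt4, Gpx5 and Gpx6, each listed at 0 in all libraries, and Gsto2, Gstp3 and Ggct, with group means of 0.0788 to 0.441 FPKM.

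**Figure D1:**
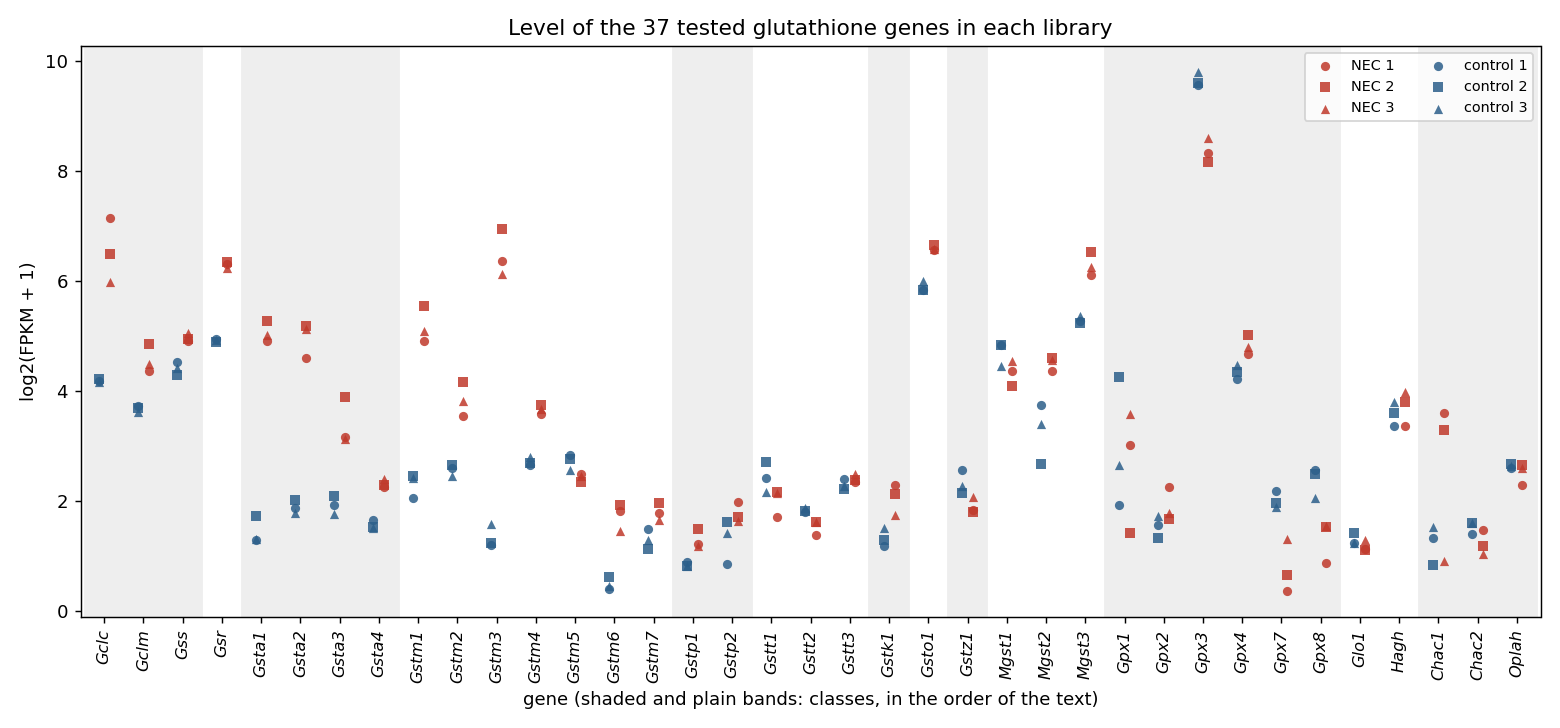
Level of the 37 tested members on a log2(FPKM + 1) axis, 1 point per library, with control in blue, NEC in red and the replicate number as the marker shape. Gpx3 is the highest member in all 6 libraries, and Gstm3 and Gsta1 stand among the low members in control and among the high ones in NEC.

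Glutathione synthesis genes were higher in NEC throughout, and all 3 tested members rose. Gclc, the catalytic subunit of the rate-limiting glutamate-cysteine ligase (chromosome 9, 77754535 to 77794485), was at 17.3, 17.7 and 17.1 FPKM in control 1, 2 and 3 and at 141, 89.3 and 62.7 in NEC 1, 2 and 3. The controls lay within 1 FPKM of one another, while the NEC libraries were spread, NEC 1 highest. Its change was 2.35 (SE 0.27), and it moved from place 8 to place 2 among the members. Gclm, the subunit that tunes the ligase, was at 12.3, 11.9 and 11.3 FPKM in control and 19.7, 28.1 and 21.6 in NEC, a change of 0.90 (SE 0.14). Here NEC 2 was highest, so both subunits were higher in every NEC library but not in the same order. Gss, glutathione synthetase, was at 22.2, 18.6 and 20.6 against 29.0, 29.9 and 32.3 FPKM, a change of 0.55 (SE 0.10) without overlap, and its call was lost without control 2, at 0.49. The summed level of the 3 genes was 49.6 ± 1.94 FPKM in control and 151 ± 36.6 in NEC (SD, n = 3 each).

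Gsr, glutathione reductase (chromosome 8, 33652523 to 33698163), was the most even of the genes that rose by more than 1. It stood at 29.9, 29.0 and 29.4 FPKM in control and 78.7, 81.1 and 74.2 in NEC. The change was 1.38 (SE 0.08), and it shared no 50-base stretch with another gene.

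All 4 alpha class transferases, which also reduce lipid hydroperoxides, rose. Gsta1 (chromosome 9, 78230656 to 78242684) was at 1.45, 2.34 and 1.5 FPKM in control and 29.2, 37.7 and 31.4 in NEC, a change of 3.62 (SE 0.16). Gsta2 (chromosome 9, 78331018 to 78355788) was at 2.68, 3.06 and 2.46 against 23.3, 35.6 and 34.2 FPKM, a change of 3.08 (SE 0.17). Every NEC library was far above every control for both genes, whose stretches printed above are identical. Their sum with the related neighbours Gm3776 and Gm10639, which depends less on how reads were divided among the 4 genes, was 5.45 ± 0.75 FPKM in control and 78.3 ± 12.4 in NEC. The ratio of these means was 14.4. Gm3776 alone was at 0.899 ± 0.0647 and 13.2 ± 2.21 FPKM.

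The other alpha members, whose sequences stand apart, moved less. Gsta3 (chromosome 1, 21240589 to 21265661), the only alpha member off chromosome 9, was at 2.82, 3.29 and 2.42 FPKM in control and 7.97, 14 and 7.77 in NEC, a change of 1.47 (SE 0.22). Gsta4, which conjugates the lipid peroxidation product 4-hydroxynonenal, went from 1.97 ± 0.162 to 4.01 ± 0.244 FPKM, a change of 0.76 (SE 0.10). Neither shared more than 0.3% of its 50-base stretches with another gene.

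The mu class held the largest change of the family, and 6 of its 7 members rose. Gstm3 (chromosome 3, 107963696 to 107969283) was at 1.32, 1.35 and 2.02 FPKM in control and 81.8, 123 and 68.9 in NEC. With a single annotated transcript its values convert to about 27, 27 and 43 fragments in control and 1811, 2942 and 1689 in NEC. The change was 5.14 (SE 0.23), and Gstm3 moved from place 30 to place 4 among the members. The processed pseudogene Gm8834 on chromosome 10, which holds 16.0% of the 50-base stretches of Gstm3, was at 0.835 ± 0.467 and 31.6 ± 7.36 FPKM, so both entries were high in the same libraries.

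Gstm1 was at 3.15, 4.49 and 4.39 FPKM in control and 29.1, 45.6 and 33.4 in NEC, a change of 2.87 (SE 0.19). Its copy Gstm2-ps1 stood at 2.45 ± 0.483 and 21.4 ± 4.08 FPKM. Gstm2 was at 5.10, 5.28 and 4.50 against 10.7, 16.9 and 13.2 FPKM (change 1.27, SE 0.17). In Gstm1, Gstm2 and Gstm3 the highest library was NEC 2. Gstm6 was at 0.331, 0.533 and 0.379 FPKM in control and 2.53, 2.80 and 1.75 in NEC, a change of 1.24 (SE 0.15) that the pseudocount keeps small at this level. Gstm4 changed by 0.95 (SE 0.10) and shared no stretch with another gene. Gstm7 changed by 0.50 (SE 0.14), and its call was lost without NEC 2 or any of the controls, at 0.41 to 0.60.

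The exception was Gstm5, at 6.21, 5.82 and 4.97 FPKM in control and 4.64, 4.13 and 4.47 in NEC, a change of -0.30 (SE 0.11) that did not pass, though it did with sample weights, at -0.36. In control Gstm5 and Gstm4 had the highest levels of the class, at 5.67 ± 0.633 and 5.62 ± 0.350 FPKM. These control levels did not differ beyond their spread. In NEC Gstm3 was first, and Gstm1, Gstm2 and Gstm4 also stood above Gstm5. The summed mu class level was 23.7 ± 0.440 FPKM in control and 162 ± 40.1 in NEC, and 26.2 ± 0.817 and 183 ± 44.2 with Gstm2-ps1.

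The 7 mu genes lie side by side within 149074 bases of chromosome 3 with no other protein-coding gene between them. From the low to the high coordinate the changes were -0.30 for Gstm5, 0.50 for Gstm7, 1.24 for Gstm6, 5.14 for Gstm3, 1.27 for Gstm2, 2.87 for Gstm1 and 0.95 for Gstm4. Gstm5, at the edge, is the only one on the plus strand. Gstm3 thus had a change of more than 5 between neighbours at 1.24 and 1.27. The 4 theta genes lie within 63310 bases of chromosome 10, and none of the 3 tested passed.

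**Figure D2:**
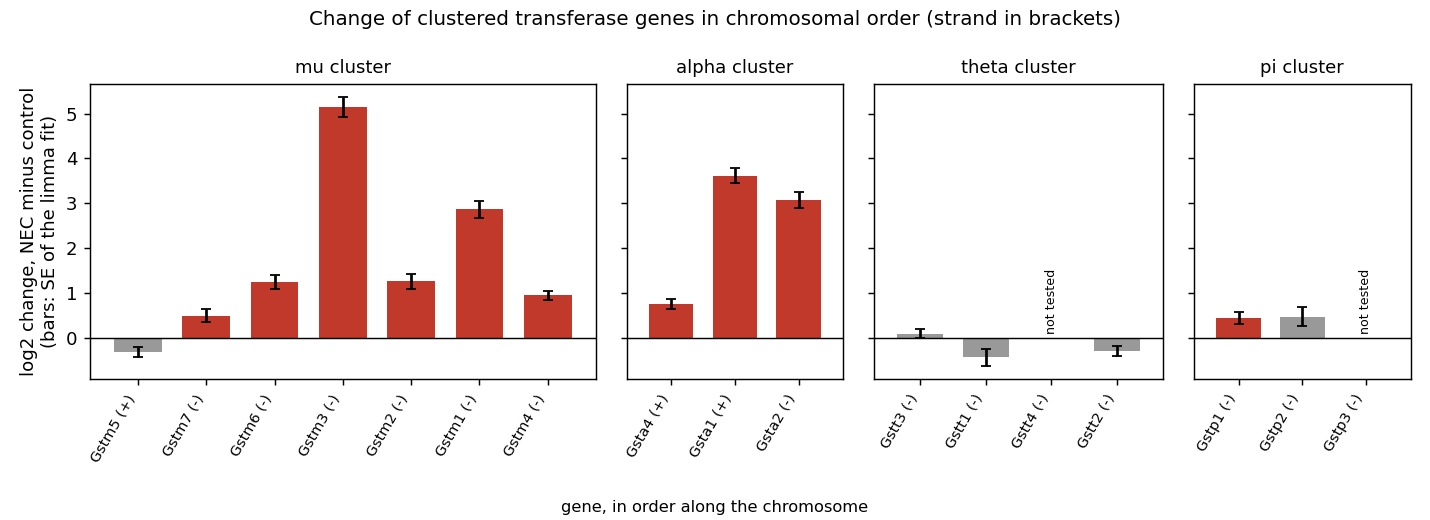
Change in NEC (bars, with the SE of the limma fit) of the mu, alpha, theta and pi transferase genes in their order along the chromosome, strand in brackets, with genes that rose in red and genes that did not pass in grey. Gstm3, at 5.14, stands between neighbours at 1.24 and 1.27, and no theta bar reaches 0.5.

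In the pi class the level depended on the entry read. Gstp1, the pi enzyme of most tissues, was listed at 0.803 ± 0.0518 FPKM in control and 1.48 ± 0.312 in NEC, a change of 0.45 (SE 0.13) whose call was lost without NEC 2 or any of the controls, at 0.35 to 0.48. Gstp2 was at 0.808, 2.07 and 1.69 FPKM in control and 2.95, 2.29 and 2.14 in NEC and did not pass, at 0.48 (SE 0.22), though it did with quantile normalization, at 0.82. The copy Gstp-ps was at 33.4, 35.8 and 39.3 FPKM in control and 81.6, 88.0 and 77.3 in NEC, far above both genes. With the copy, the summed class level was 38.6 ± 3.44 FPKM in control and 86.6 ± 5.91 in NEC, a ratio of 2.25. Without it the sums were 2.40 ± 0.658 and 4.29 ± 0.716 FPKM. Whether the fragments counted on the copy came from the genes was not tested.

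The remaining soluble classes moved little or were single genes. None of the 3 tested theta genes passed, though Gstt3 did with TMM scaling or quantile normalization, at 0.39 each. Gstt1 was at 4.36, 5.6 and 3.51 FPKM in control and 2.28, 3.51 and 3.42 in NEC, with overlap. Gstt2 was at 2.57 ± 0.0944 and 1.92 ± 0.272, and Gstt3 at 3.96 ± 0.318 and 4.32 ± 0.292 in control and NEC. Gstz1, which also isomerises maleylacetoacetate in tyrosine breakdown, was at 4.92, 3.45 and 3.84 against 2.57, 2.52 and 3.23 FPKM and did not pass, but without NEC 3 its change was -0.51 and passed. Gsto1, the omega enzyme that reduces dehydroascorbate, was the most abundant transferase in control at 56.3, 56.7 and 62.9 FPKM, and rose to 93.6, 99.8 and 95.1 in NEC (change 0.71, SE 0.09). It was the second member in control and the third in NEC. Gstk1, a mitochondrial and peroxisomal transferase, was at 1.27, 1.44 and 1.87 against 3.90, 3.41 and 2.36 FPKM (change 0.73, SE 0.17), and its call was lost without NEC 2, control 1 or control 2, at 0.65 to 0.71.

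Of the membrane transferases, a separate protein family that also handles leukotriene and lipid peroxide, 2 of 3 rose. Mgst3 was at 37.9, 37.1 and 40.5 FPKM in control and 68.0, 91.1 and 75.5 in NEC, just under a change of 1 (SE 0.13). Mgst2 was at 12.5, 5.44 and 9.63 against 19.6, 23.5 and 22.7 FPKM, a change of 1.23 (SE 0.26). The controls of Mgst2 were spread, control 2 lowest, while its NEC libraries were close, and its call was lost without both NEC libraries high in Xist, at 1.08. Mgst1, the main membrane transferase of liver, was at 27.6, 27.8 and 21.1 FPKM in control and 19.7, 16.2 and 22.4 in NEC, and did not pass, though it did with sample weights, at -0.51.

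Over all 25 transferases the summed level was 184 ± 2.23 FPKM in control and 475 ± 66.0 in NEC. Among the 22 tested transferases 15 rose and none fell, beside 7.69% and 30.6% of all tested genes, and 7 did not pass. Gstm6 and Gstp1, among those that rose, passed the filter only through their NEC libraries, and Gsta1 and Gsta2 share sequence. The family was picked with this comparison in view, so nothing is read from these shares.

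**Figure D3:**
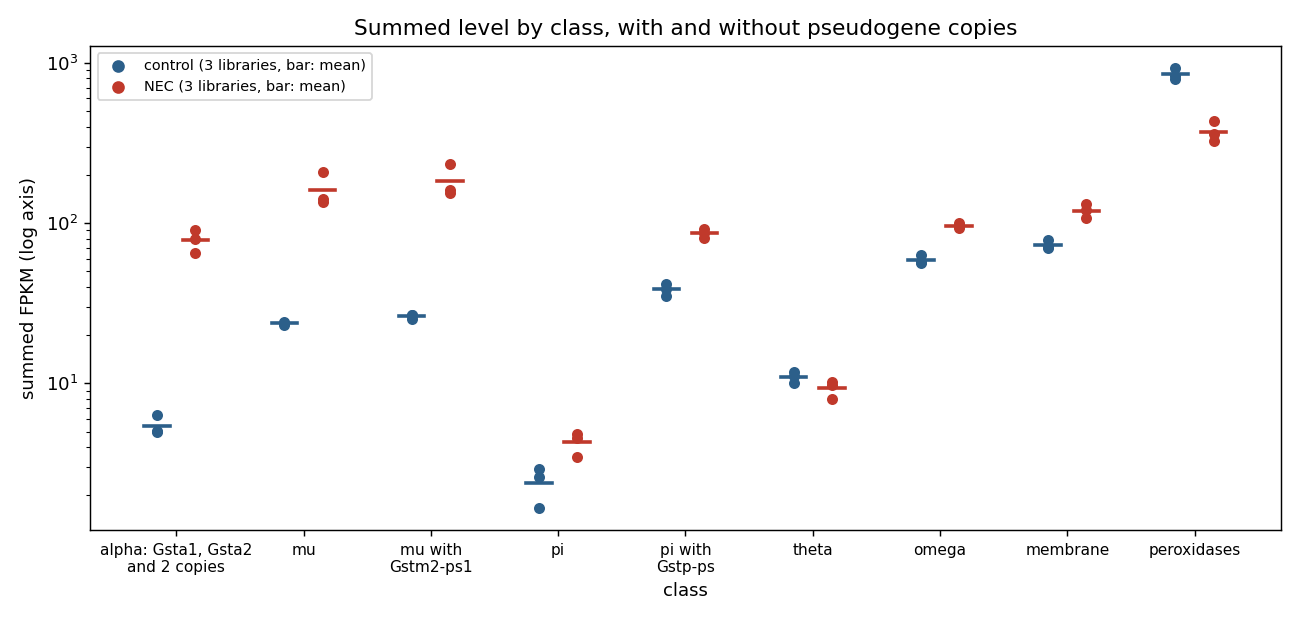
Summed FPKM of transferase classes (for alpha, Gsta1 and Gsta2 with Gm3776 and Gm10639) and peroxidases on a log axis, 1 point per library with the group mean as a bar, control in blue and NEC in red. Adding Gstp-ps moves the pi class from 2.40 to 38.6 FPKM in control, while adding Gstm2-ps1 moves the mu class only from 23.7 to 26.2.

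The peroxidases split. Gpx1 to Gpx4 are selenoproteins, in which an in-frame TGA is read as selenocysteine at the catalytic site, and the other members have a cysteine codon there. The coding stretch around that codon is shown for each tested peroxidase, 6 codons on either side, with the catalytic codon in capitals (for Gpx7 and Gpx8, the codon aligned with the TGA of Gpx1).
Gpx1: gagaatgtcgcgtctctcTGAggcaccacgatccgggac
Gpx2: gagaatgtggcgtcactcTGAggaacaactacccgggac
Gpx3: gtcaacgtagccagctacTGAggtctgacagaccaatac
Gpx4: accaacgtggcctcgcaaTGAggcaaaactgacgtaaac
Gpx7: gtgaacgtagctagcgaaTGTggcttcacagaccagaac
Gpx8: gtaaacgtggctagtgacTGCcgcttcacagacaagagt
The codon was TGA in the first 4 and TGT or TGC in the last pair. The 3 that fell were the selenoprotein gene Gpx3 and both cysteine genes, of which Gpx7 passed the filter only through its controls. The only one that rose was the selenoprotein gene Gpx4, and Gpx1 and Gpx2 did not pass. Whether the codon bears on the change was not tested.

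Gpx3, the secreted peroxidase of plasma and of the bowel wall (chromosome 11, 54902453 to 54910377), was at 762, 778 and 895 FPKM in control and 322, 286 and 388 in NEC, a change of -1.29 (SE 0.15) without overlap. It was the most abundant member in both groups and fell in each of the 17 alternative analyses that were run. Gpx7, a peroxidase of the endoplasmic reticulum, was at 3.56, 2.92 and 2.70 against 0.292, 0.578 and 1.49 FPKM (change -1.23, SE 0.25). Gpx8, a membrane protein of the same compartment, was at 4.95, 4.68 and 3.17 against 0.848, 1.89 and 1.92 FPKM (change -1.06, SE 0.23). In both, NEC 1 was lowest, while Gpx3 was lowest in NEC 2. The summed mesenchyme and muscle marker level was 230 FPKM in NEC 1 against 928 and 960 in NEC 2 and 3. A link between these levels was not tested. The calls of Gpx7 and Gpx8 were lost without control 1 (-1.15 and -0.96) or control 2 (-1.26 and -1.0).

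Gpx4, which reduces lipid hydroperoxides in membranes, was at 17.8, 19.3 and 21.4 FPKM in control and 24.6, 31.6 and 27.0 in NEC (change 0.48, SE 0.12). Its call was lost without NEC 2 or any of the controls, at 0.39 to 0.55. Its transcribed copy Gpx4-ps2 on chromosome 10, 99.6% identical over 512 aligned bases, was higher than the gene, at 95.4 ± 9.07 FPKM in control and 123 ± 27.4 in NEC. The sum of both was 115 ± 10.8 and 150 ± 31.0 FPKM, a ratio of 1.31. Gpx2, the peroxidase of gut epithelium, was listed low, at 1.95, 1.52 and 2.33 against 3.80, 2.22 and 2.45 FPKM, with overlap, and did not pass, though without both NEC libraries high in Xist it did, at 0.72. Gpx1, the peroxidase of most cells, was at 2.83, 18.3 and 5.30 FPKM in control and 7.12, 1.69 and 11.1 in NEC. The spread within each group was wider than the gap between their means, so no difference was detectable, and the sign of its change of -0.27 (SE 0.74) turned without NEC 2 (0.35) or control 2 (0.39). Gpx1 shared no 50-base stretch with another annotated transcript.

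**Figure D4:**
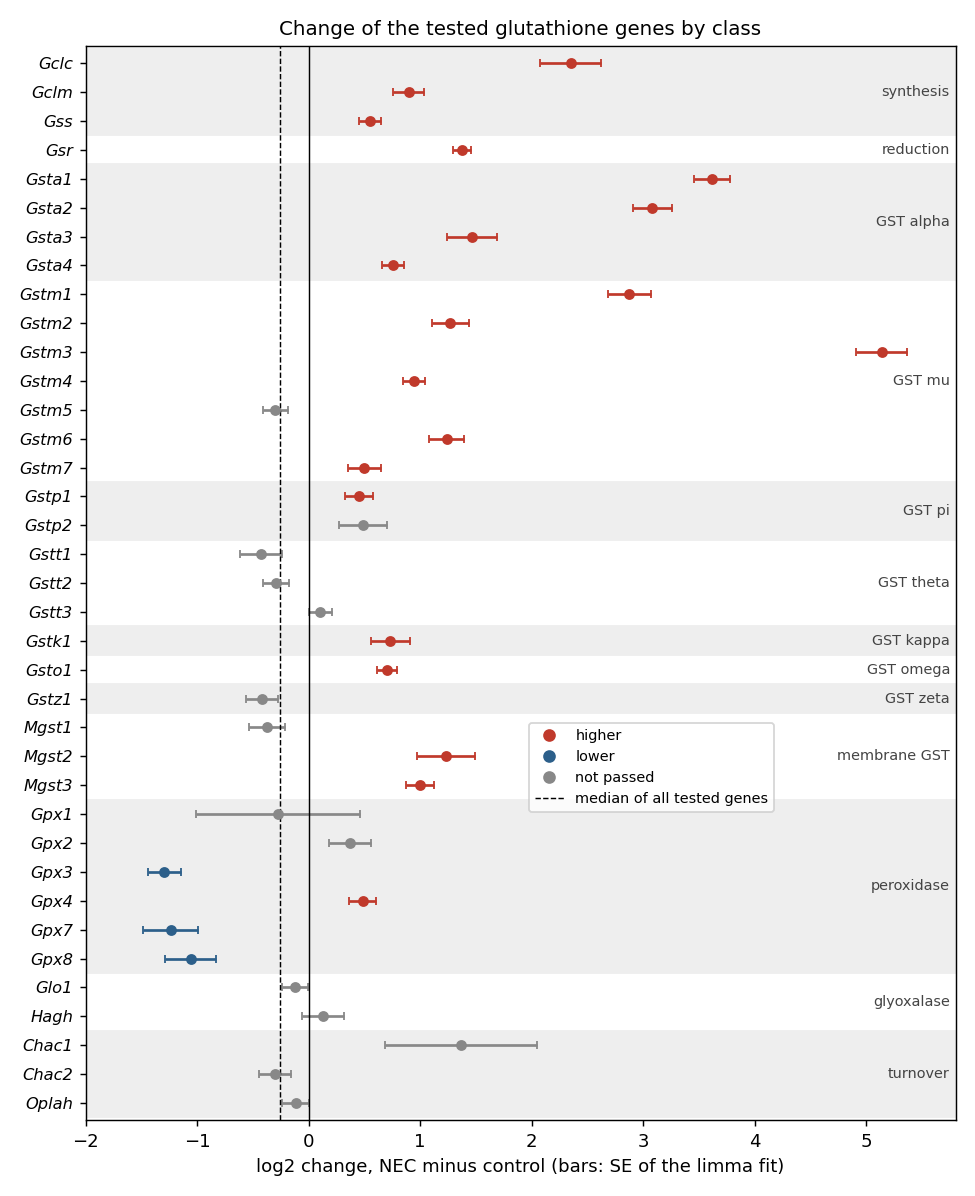
Change of each tested member with the SE of the limma fit, by class, with genes that rose in red, genes that fell in blue and genes that did not pass in grey, and the median of all tested genes, -0.26, as a dashed line. The largest change is that of Gstm3 at 5.14, and the only genes that fell are Gpx3, Gpx7 and Gpx8.

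The glyoxalases, which use glutathione to clear methylglyoxal, and the genes of glutathione breakdown gave no calls in the 5 tested members. Glo1 was at 1.47 ± 0.186 and 1.27 ± 0.162 FPKM in control and NEC. Hagh was at 9.27, 11.2 and 13 FPKM in control and 9.30, 13 and 14.9 in NEC, with overlap. Oplah, the 5-oxoprolinase, was at 5.06, 5.38 and 5.22 FPKM in control and 3.92, 5.34 and 5.07 in NEC, also with overlap. Chac1, which cleaves glutathione and is known as a target of the stress factor Atf4, split the NEC libraries: it was at 11.2, 8.85 and 0.884 FPKM in NEC 1, 2 and 3 and at 1.52, 0.803 and 1.88 in control. NEC 3 lay within the control range and the change of 1.37 (SE 0.68) did not pass, but without NEC 3 it was 2.22 and passed. Chac2, the constitutive relative, was at 1.90 ± 0.223 and 1.37 ± 0.367 FPKM, and its change of -0.30 (SE 0.15) did not pass, but without NEC 1 it was -0.42 and passed.

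The promoters were searched for short motifs as a description of the sequences. The family was picked with the NEC comparison in view, so joint movement of its members is no result here. RefSeq promoters on GRCm38.p6, 250 bases before to 50 after the start, were found for 38 of the 43 members, all but Gclc, Gsr, Gsta4, Gstt2 and Oplah. The antioxidant response element, bound by Nrf2 with a small Maf protein, was searched as TGACNNNGC on both strands, and the AP-1 element as TGANTCA, which can overlap it. The first was found in 7 of the 38 members (18.4%), against 14% of 27018 genes with a promoter, and the second in 4 (10.5%) against 9.0%. A TATAAA was found in 5 (13.2%, all genes 15.7%), and the dioxin response core GCGTG in 15 (39.5%, all genes 35.2%). The members with TGACNNNGC were Gsta3, Gstm7, Gclm, Gstm5, Mgst1, Hagh and Ggct. Of these 3 rose, out of 17 members that rose and had a promoter, so most risers held no match. The promoters of these 3 are shown with TGACNNNGC matches in capitals.
Gclm, chr3:122245307-122245606, plus strand: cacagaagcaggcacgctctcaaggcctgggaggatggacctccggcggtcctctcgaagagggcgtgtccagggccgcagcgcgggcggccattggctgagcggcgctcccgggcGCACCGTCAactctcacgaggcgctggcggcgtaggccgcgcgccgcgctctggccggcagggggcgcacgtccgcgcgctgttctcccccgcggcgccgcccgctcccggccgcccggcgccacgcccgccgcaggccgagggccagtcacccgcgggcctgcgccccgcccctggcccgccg
Gsta3, chr1:21240335-21240634, plus strand: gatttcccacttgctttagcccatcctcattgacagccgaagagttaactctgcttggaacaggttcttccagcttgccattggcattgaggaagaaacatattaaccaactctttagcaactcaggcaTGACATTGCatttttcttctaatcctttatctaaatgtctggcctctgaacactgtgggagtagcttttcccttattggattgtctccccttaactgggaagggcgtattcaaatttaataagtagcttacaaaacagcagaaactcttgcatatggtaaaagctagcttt
Gstm7, chr3:107931565-107931864, minus strand: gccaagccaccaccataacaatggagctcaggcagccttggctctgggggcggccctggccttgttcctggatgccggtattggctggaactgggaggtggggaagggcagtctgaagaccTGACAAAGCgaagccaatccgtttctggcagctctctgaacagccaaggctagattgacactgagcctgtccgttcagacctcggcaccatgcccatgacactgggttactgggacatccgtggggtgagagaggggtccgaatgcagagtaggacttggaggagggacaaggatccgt
The match read TGACATTGC in Gsta3, TGACAAAGC in Gstm7 and, on the other strand, TGACGGTGC in Gclm. It began 121, 129 and 134 bases before the start. The promoters of Gstm3, Gsta1 and Gsta2, and a further promoter of Gstm7 (chr3:107931768-107932067), held no match in this window. A match describes these letters only, and other distances were not searched.

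The wider glutathione pathway was read from 95 genes in 6 lists that are not members, of which 79 passed the filter. Among them 17 rose, 14 fell and 48 did not pass, beside 7.69% higher and 30.6% lower among all tested genes, with a median change of 0.03. With TMM scaling 35 rose and 6 fell, and with quantile normalization 30 and 7, so the balance of this wider set depended on the scale. The p-values below are limma's, Benjamini-Hochberg adjusted over all tested genes. The lists too were drawn up with earlier results of these data known, so these p-values are given only as a description of the fit.

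The list labelled NADPH supply, which glutathione reductase draws on, had 7 of 11 tested genes higher and 2 lower. Among all tested genes 7.69% were higher and 30.6% lower. Tkt and Taldo1, named after their values were seen, fit this label loosely and rose by 0.85 and 0.57. The Taldo1 call was lost without control 1 (0.60) or control 2 (0.49). Me1, cytosolic malic enzyme, went from 5.01 ± 1.11 to 45.6 ± 14 FPKM, a change of 2.92 (SE 0.26, limma adjusted p = 0.00205). Pgd, of the pentose phosphate pathway, rose from 17.2 ± 0.264 to 37.8 ± 4.51 FPKM and Idh1, cytosolic isocitrate dehydrogenase, from 22.8 ± 0.727 to 49.3 ± 6.48 FPKM, each by 1.08 (limma adjusted p = 0.00293 and 0.00352). The mitochondrial counterpart Idh2 fell from 22.9 ± 0.472 to 9.25 ± 3.89 FPKM (change -1.30, limma adjusted p = 0.0165), and Pgls fell by 0.35. G6pdx, named after its values were seen, which opens the pentose phosphate pathway, was at 6.14 ± 0.441 and 6.95 ± 1.01 FPKM and did not pass. The Idh2 call was lost without any single control, at -1.31 to -1.29. The Pgls call was lost without NEC 2 or any single control, at -0.37 to -0.31, and with TMM scaling (-0.05) or quantile normalization (-0.12).

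Precursor supply and turnover had 4 of 17 tested genes higher and 4 lower. Among the latter was Slc7a9 at -0.30, which turned to 0.05 with TMM scaling. Its call was lost in 10 more of the 17 alternatives, among them those without NEC 2 or any single control. Slc1a1, a glutamate and cysteine carrier, fell from 3.93 ± 0.209 to 0.849 ± 0.536 FPKM (change -1.45, limma adjusted p = 0.00697), and Cth, which makes cysteine from cystathionine, from 8.29 ± 0.832 to 3.60 ± 0.885 (change -1.03, limma adjusted p = 0.00861). Ggt1, which starts breakdown of extracellular glutathione, and the dipeptidase gene Dpep1 rose by 0.63 and 0.52 (limma adjusted p = 0.0495 and 0.0408). The Ggt1 call was lost when any 1 library but NEC 3 was left out, at 0.48 to 0.67, and the Dpep1 call when any 1 but NEC 1 was, at 0.42 to 0.62. Both calls were also lost without the filter and with the replicate block. That of Ggt1 was lost with pseudocounts of 0.1 and 0.01 (1.13 and 1.23) and with scaling to protein-coding genes (0.67). The cystine carrier Slc7a11, also named after its values were seen, was below the filter, at 0.146 ± 0.0221 and 0.437 ± 0.367 FPKM.

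Among the export and mercapturate genes 1 of 13 rose and 1 fell. Abcc2, the apical pump for glutathione conjugates, went from 132 ± 1.51 to 315 ± 89.7 FPKM (change 1.20, limma adjusted p = 0.0105), and Abcc1, its basolateral relative, from 1.91 ± 0.0752 to 1.09 ± 0.175 (change -0.48, limma adjusted p = 0.0207). The Abcc1 call was lost with TMM scaling, at -0.28, with quantile normalization, at -0.10, and without NEC 2 or any single control, at -0.50 to -0.47.

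The list labelled other glutathione-dependent enzymes, a label that Ptges2 and Tst fit loosely, had 2 of 14 tested genes higher and 4 lower. Tst, a mitochondrial sulfur transferase, fell from 11.5 ± 0.627 to 2.46 ± 1.27 FPKM (change -1.93, limma adjusted p = 0.00712), and Lancl1, a glutathione-binding protein, fell by 0.80. Esd, which hydrolyses S-formylglutathione, and Ptges2 rose by 0.69 and 0.49. The calls of Lancl1 and Ptges2 were lost without control 1 (-0.84 and 0.49) or control 2 (-0.71 and 0.44). The list labelled selenocysteine insertion, a process that the peroxidases Gpx1 to Gpx4 need, had 1 of 7 tested genes higher and 2 lower. Sepsecs and Sephs1 changed by -0.78 and -0.73. Selenop, a selenium carrier and not itself part of insertion, changed by 0.41. Sephs2, Secisbp2, Eefsec and Scly did not pass. The Sephs1 call was lost with TMM scaling (-0.44), quantile normalization (-0.46) and pseudocounts of 0.1 and 0.01 (-0.87 and -0.89), and without NEC 2 or any single control, at -0.80 to -0.68. The Selenop call was lost without the same libraries, at 0.37 to 0.43.

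Regulators of detoxification genes gave 2 higher and 1 lower of 17. Mafk, a small Maf partner of Nrf2, and Ppara rose by 0.62 and 0.58 (limma adjusted p = 0.0313 and 0.0231), and Ahr, the dioxin receptor, fell by 0.61 (limma adjusted p = 0.0279). All 3 calls were lost without any single control, at 0.61 to 0.63, 0.54 to 0.65 and -0.62 to -0.60. The Ahr call was also lost with TMM scaling (-0.31) and quantile normalization (-0.38), and that of Mafk without NEC 2 (0.56). Named after their values were seen, Nfe2l2, which encodes Nrf2, was at 22.7 ± 1.85 and 22.3 ± 5.84 FPKM, its inhibitor Keap1 at 7.03 ± 1.02 and 7.96 ± 0.162, and Atf4 at 24.3 ± 0.952 and 28.1 ± 5.01 in control and NEC. None of these 3 passed (limma adjusted p = 0.827, 0.294 and 0.324). Nr1i2, the pregnane X receptor and named in the same way, was at 32.7 ± 1.34 and 57.4 ± 21.5 FPKM and did not pass (limma adjusted p = 0.0539).

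**Figure D5:**
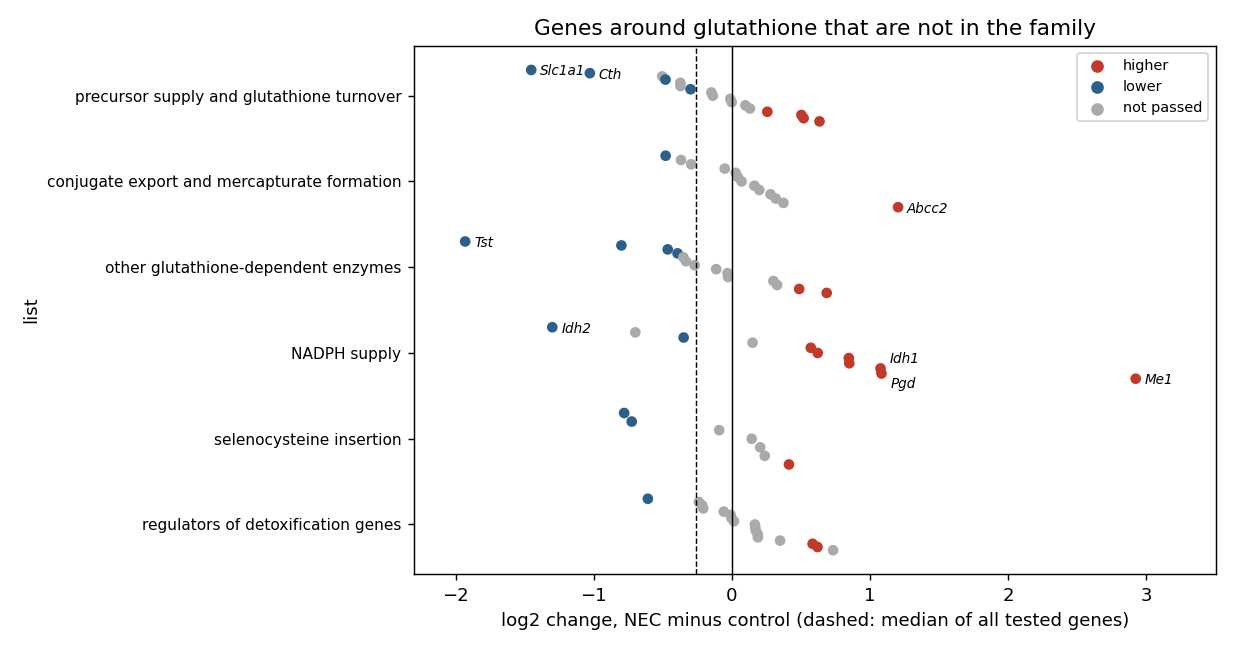
Change of each tested gene of the 6 pathway lists, with genes that rose in red, genes that fell in blue and genes that did not pass in grey, names at an absolute change of 1 or more among those called, and the median of all tested genes, -0.26, dashed. NADPH supply has Me1 at 2.92 and 7 genes that rose, while the regulators lie mostly near 0.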

How the data were processed

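The 6 ileal libraries were made with a TruSeq RNA kit from RNA of integrity number above 7, per the labels' protocols. HISAT2, SAMtools 1.3.1 and Cuffdiff were used on mm10, per the submitters' processing notes. The deposited table names no unit. It was taken to hold the FPKM that the authors made with Cuffdiff, the tool in those notes, and deposited. Columns beginning with N were read as NEC, because the other columns are named control. The design text also uses the word normal, so this reading is an assumption on which the direction of every change rests. Annotation and strand setting are not given in the sources used here.

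Of 55487 identifiers, 55141 matched GENCODE M21 (GRCm38), which gave symbols and positions. Depth came from single-transcript genes, where 99.1% or more of values below 100 fragments were whole within 0.01. Genes whose mean reached 1 FPKM entered 1 limma-trend fit of log2(FPKM + 1) on group alone (limma 3.58.1, R 4.3.3), which was tested on simulated data. Exact permutation was not used, because 3 libraries a group give no p under 0.1. Sequence sharing, identity and motifs were computed in Python 3.11.15.

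Members, lists and tests were chosen with earlier results of these data known. The text gives library values for members that changed by at least 1, for Gclc, Gclm, Gss, Gsr and Gpx1 to Gpx4, and for the highest member of each class. From each pathway list it takes up to 4 called genes of the largest change and up to 2 called against the rest. Nnt and Dpep2 were left out, since 2 identifiers share each symbol.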

Additional observations from a re-analysis of the deposited data

How the results depend on the processing

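Of the 23 called members, 15 kept their call in every one of the 17 alternatives that tested them, and none turned direction. The number of members that rose was 15 to 22 and of those that fell 1 to 6. Falls numbered 1 at a mean of at least 5 FPKM, where 20 members were tested, 6 with sample weights, and 1 to 4 when any 1 library was left out. Without both NEC libraries high in Xist, an alternative chosen after seeing the data that leaves NEC 1 alone and assumes it varies like the controls, 18 members rose and 5 fell, and 20 and 29 pathway genes. Pathway genes that rose numbered 35 with TMM scaling, 30 with quantile normalization and 7 to 26 when any 1 library was left out, against 17. Those that fell numbered 6, 7 and 4 to 21, and 8 at a mean of at least 5 FPKM, against 14. The replicate numbers did not pair the libraries: deviations from the group means correlated at -0.05, -0.01 and -0.07 between same-numbered libraries. With the replicate block 17 members rose and 3 fell, and 13 and 7 pathway genes. Among the calls lost with it were those of Gstm7, Gstp1, Gstk1, Abcc1, Pgls and Selenop. Those lost without the filter included Gstm7, Gstp1, Mafk and Selenop. The sign turned in 6 members that had not passed and in 1 called pathway gene, Slc7a9 (-0.30, and 0.05 with TMM scaling). The members were Glo1 (0.08 with TMM scaling, 0.26 with quantile normalization), Oplah (0.18 and 0.14), Gpx1 (0.02 with TMM scaling, 0.07 without both NEC libraries high in Xist, and from -0.78 to 0.39 when any 1 library was left out, positive without NEC 2 at 0.35 and without control 2), Hagh (-0.23 without both NEC libraries, and -0.01 to 0.31 when any 1 library was left out, negative without NEC 3), and Chac2 and Gstt2 (0.06 each with quantile normalization). Without both NEC libraries high in Xist, Gstt2 (-0.45) and Oplah (-0.34) passed. The cause of these shifts was not tested. Control levels of Gstm3 rest on 27 to 43 fragments, and fold changes on log2(FPKM + 1) understate the change of genes that low.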
